A study of Mus musculus with 23 samples.

Results

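Clu, Msln, Tinagl1 and Gja1 are 4 of the 54354 genes in a count table from mouse colon tumours, chosen by name as clusterin and 3 further markers of fetal-like or revival epithelium outside the annexin family. All 4 were found, each on a single row, and all 4 passed the filter on low counts. The tumours grew from AKP-tdT organoids, cultured mouse tumour epithelium marked with the red protein tdTomato, which also carried Basp1-eGFP-DTR, a reporter that ties green fluorescence and a toxin receptor to the Basp1 gene. The organoids were placed orthotopically in the colon of mice, and the digested primary tumours were sorted into 11 GFP-positive and 12 GFP-negative libraries. Both groups share the Basp1-GFP genotype and the colon as tissue. No treatment, diet, strain, age, sex or host genotype is given in the labels, although the series title ends in the letters HFD. The number of organoid clones is not given either, so the libraries may all descend from 1 engineered line.

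Clusterin is a secreted chaperone that binds misfolded proteins and lipoproteins outside cells. In the mouse intestine its gene marks revival stem cells, rare epithelial cells that appear after injury, depend on the transcriptional regulator Yap1 and can rebuild crypts. A related fetal-like state, in which adult epithelium switches on genes of the fetal gut, has been described in regenerating mucosa and in colorectal tumours. Mesothelin (Msln) is a cell-surface protein anchored by a lipid tail that is normal in mesothelium and raised in many carcinomas. Tinagl1 encodes a secreted matrix protein related to tubulointerstitial nephritis antigen, and Gja1 encodes connexin 43, the channel subunit of many gap junctions.

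Promoter windows of Gja1 and Tinagl1 are shown for their short letter patterns of TEAD, the DNA-binding partner of Yap1, and of AP-1, a factor that often acts beside it. Windows of Clu and Msln are not used here. The windows come from RefSeq on GRCm38.p6 and run 5′ to 3′ on the gene's strand from 250 bases before the start to 50 bases after it. Capitals mark matches, searched on both strands, to TGANTCA for AP-1, GGAATG for TEAD, GAANNTTC for heat shock factor and TATAAA for the TATA box. No matches overlapped.
Gja1, chr10:56377050-56377349, plus strand: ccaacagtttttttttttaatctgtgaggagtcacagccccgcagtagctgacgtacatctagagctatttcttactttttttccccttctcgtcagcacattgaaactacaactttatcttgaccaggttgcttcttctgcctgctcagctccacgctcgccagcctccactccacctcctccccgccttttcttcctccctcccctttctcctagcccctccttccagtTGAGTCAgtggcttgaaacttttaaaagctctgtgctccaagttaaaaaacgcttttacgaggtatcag
Tinagl1, first start, chr4:130175073-130175372, minus strand: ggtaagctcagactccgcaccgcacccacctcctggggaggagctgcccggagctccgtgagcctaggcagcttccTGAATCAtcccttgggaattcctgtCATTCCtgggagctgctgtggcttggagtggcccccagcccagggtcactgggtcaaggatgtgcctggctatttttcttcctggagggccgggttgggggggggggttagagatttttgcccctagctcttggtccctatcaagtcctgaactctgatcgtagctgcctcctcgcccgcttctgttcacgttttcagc
Both windows hold 1 match to AP-1, at position -19 from the start in Gja1 and at -174 in Tinagl1. The Tinagl1 window also holds 1 match to TEAD on the opposite strand, at -149. Of 32851 promoter windows of this length, 7.81% hold the AP-1 letters, 14.7% the TEAD letters, 7.86% the heat shock letters and 13.6% the TATA letters. The window at a second Tinagl1 start held no match to any of the 4 patterns.

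The libraries were shallow and uneven. The median total was 1418140 counts in GFP-positive libraries (37125 to 4238877) and 144334 in GFP-negative libraries (25458 to 2304316), and 1 GFP-positive and 3 GFP-negative libraries held under 100000. Basp1, the gene behind the sort, had a log2 fold change of 0.63 (SE 0.38, edgeR quasi-likelihood test, adjusted p = 0.997). Across all genes, 1 of 6621 tested was called at an adjusted p under 0.05, which is 0.0151%. Fixed epithelial markers (Epcam, Krt8, Krt18, Krt19, Cdh1, Cldn3, Cldn7 and Vil1) were detected in both groups. Their summed level ran from 2374 to 6360 counts per 1000000 (CPM) in GFP-positive libraries, with a median of 5302, and from 2427 to 6824 CPM in GFP-negative libraries, with a median of 4163. Fibroblast markers summed to 0 to 2081 CPM in GFP-positive and 148 to 8681 CPM in GFP-negative libraries, with medians of 214 CPM in GFP-positive and 1748 CPM in GFP-negative libraries. Macrophage markers summed to a median of 335 CPM in GFP-positive and 2377 CPM in GFP-negative libraries, but reached 28602 CPM in GFP-positive 3. Of the 8 leukocyte and lymphocyte markers, Cd3e, Cd3g, Cd79a, Ms4a1 and Nkg7 had 0 counts in all 23 libraries and Ptprc, Cd52 and Trbc1 were detected. The T cell receptor gene Trbc1 had 308 ± 199 CPM in GFP-positive (SD, n = 11) and 181 ± 126 CPM in GFP-negative libraries (SD, n = 12).

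Clu was the most abundant of the 4 genes and Gja1 the least. Divided by the length of the exons, the mean level of Clu was 515 ± 262 CPM per kilobase in GFP-positive (SD, n = 11) and 305 ± 190 in GFP-negative libraries (SD, n = 12), which placed its mean over all libraries at rank 186 of 51485 genes. Msln came next with 74.6 ± 46.2 CPM per kilobase in GFP-positive and 41.8 ± 22.3 in GFP-negative libraries, at rank 926. Clu lay above Msln in 23 of 23 libraries on this scale. Tinagl1 had 7.45 ± 4.62 CPM per kilobase in GFP-positive and 8.58 ± 5.02 in GFP-negative libraries. Gja1 had 2.71 ± 2.61 in GFP-positive and 3.40 ± 3.20 in GFP-negative libraries. Msln lay above Tinagl1 in 22 of 23 libraries, whereas Tinagl1 and Gja1 were less clearly ordered, with Tinagl1 higher in 19 of 23 libraries and a log2 ratio of 1.72 ± 1.59 (SD) over the 21 libraries where both were detected.

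**Figure D1:**
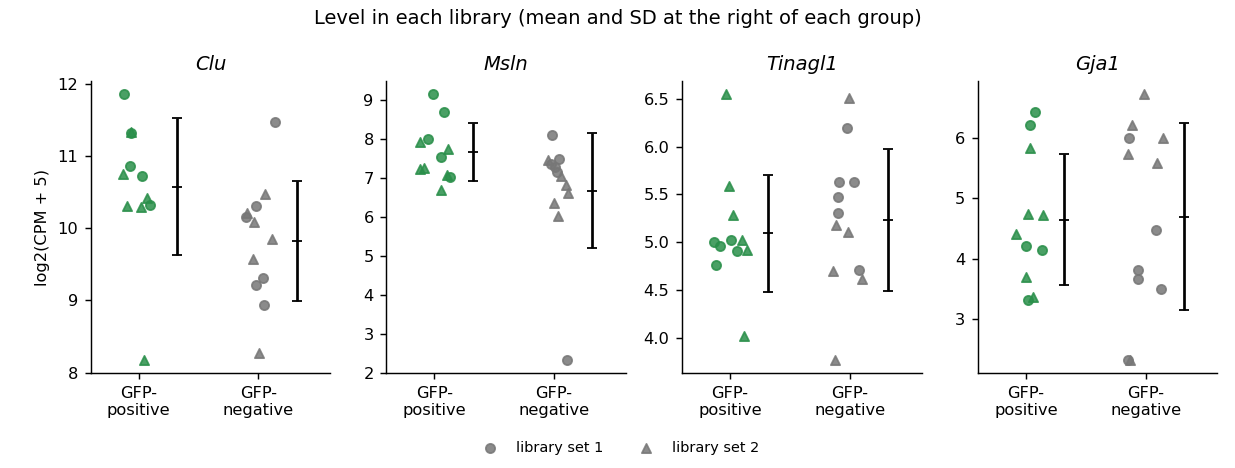
Level of each gene in every library as log2(CPM + 5), GFP-positive libraries on the left of each panel and GFP-negative on the right; circles are library set 1, triangles library set 2, and bars give the mean and SD. The groups overlap for all 4 genes, and the Clu and Msln points of the GFP-positive libraries sit higher on average.

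Clu (ENSMUSG00000022037, chromosome 14, 65968483 to 65981547 on mm10, plus strand, 14 exon blocks) tended to be higher in GFP-positive cells, without passing the threshold. GFP-positive libraries ran from 284 CPM (GFP-positive 10, 483 counts) through a median of 1677 to 3690 CPM (GFP-positive 4, 137 counts). GFP-negative libraries ran from 304 CPM (GFP-negative 11, 31 counts) through a median of 1002 to 2820 CPM (GFP-negative 6, 6497 counts). The groups overlapped almost over their whole range, yet 10 of 11 GFP-positive libraries lay above the GFP-negative median. Exact Clopper-Pearson 95% intervals, which cover counting error only, were 259.5 to 311 CPM for GFP-positive 10 and 3099 to 4361 CPM for GFP-positive 4. Differences of this size between libraries of 1 group are therefore larger than counting error.

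The fitted log2 fold change of Clu, GFP-positive over GFP-negative, was 0.69 (SE 0.33, 95% interval 0.01 to 1.37, edgeR quasi-likelihood test, unadjusted p = 0.0483, adjusted p = 0.996). At an unadjusted p under 0.05, 2.73% of all tested genes were higher, and Clu was 318th of 6621 genes by p. The value was smaller where shallow libraries were left out or given less weight: it was 0.45 (SE 0.37, adjusted p = 0.991) over libraries of at least 100000 counts and 0.24 (SE 0.37, adjusted p = 0.946) with limma voom and sample weights. Pooling all counts of a group, which lets the deepest libraries dominate, gave 1676 CPM in GFP-positive and 1762 CPM in GFP-negative cells. In library set 1, the first run of library numbers, Clu averaged 2209 ± 947 CPM in GFP-positive (SD, n = 5) and 1151 ± 875 CPM in GFP-negative libraries (SD, n = 6). In library set 2 it averaged 1405 ± 741 CPM in GFP-positive and 944 ± 386 CPM in GFP-negative libraries (SD, n = 6 each). The difference did not detectably vary between the sets (interaction -0.26, SE 0.69, edgeR adjusted p = 0.987).

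Within the 10 identifiers that have both populations, as read from the library names, Clu was higher in the GFP-positive cells of 7. The mean difference in log2(CPM + 5) was 0.59 ± 1.02 (SD, n = 10, exact sign-flip permutation p = 0.109). The largest difference, 2.59, was that of 8045-8050, where 3690 CPM stood against 589 and 628 CPM in libraries of 57728 and 25458 counts. Identifier 7789-7795 went the other way by -1.14, with 1274 CPM in GFP-positive 3, the library rich in macrophage transcripts, against 2820 CPM in GFP-negative 6. With identifiers as a block, Clu was not called (log2 fold change 0.66, SE 0.26, edgeR adjusted p = 0.986), where 0.03% of genes were. Leaving out GFP-positive 3 also removed the contrast of 7789-7795, which then had no GFP-positive library. In that block fit without GFP-positive 3, Clu was called (log2 fold change 0.81, SE 0.20, edgeR adjusted p = 0.0380), as were 1.46% of the genes tested in that fit. It was not called in the same fit over libraries of at least 100000 counts (0.60, SE 0.19, edgeR adjusted p = 0.172), where 1.47% of genes were called.

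**Figure D2:**
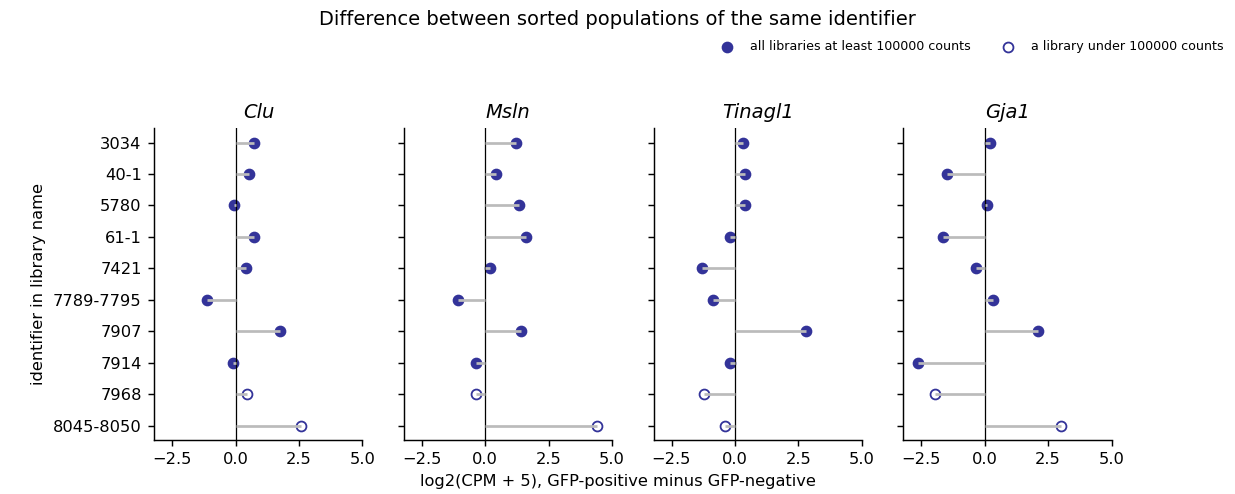
Difference in log2(CPM + 5), GFP-positive minus GFP-negative, for each gene (panels) and each identifier with both populations (rows); open points mark identifiers with a library under 100000 counts. Clu and Msln lie right of 0 in 7 of 10 identifiers each, Tinagl1 in 4 and Gja1 in 5.

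Since the share of epithelial transcripts differed between libraries, Clu was also set against the 8 epithelial markers of the same library, a scale chosen after the data had been seen. On it Clu was higher in the GFP-positive cells of 10 of 10 identifiers, by 0.46 ± 0.67 on the log2 scale (SD, n = 10, exact sign-flip permutation p = 0.00195, the smallest that 10 identifiers allow). The differences were 2.32 in 8045-8050 and 0.01 to 0.55 in the other 9, with 40-1 and 7914 at 0.03 and 0.01. Without 8045-8050 the mean was 0.25 (exact sign-flip permutation p = 0.00391), and it was 0.26 ± 0.19 over the 8 identifiers whose libraries all held at least 100000 counts (SD, n = 8, exact sign-flip permutation p = 0.00781). Of 6621 tested genes, 5 (0.0755%) were higher in every identifier on this scale, namely Myo5c, Rhbdd1, Lgr6, Nop14 and Clu. This count is no more than random signs would give, so it does not set Clu apart. By the size of the mean difference Clu ranked 851st of 6621 genes and Msln 234th. The count for Clu depended on the markers used, since leaving out each marker in turn gave 8 to 10 of 10 identifiers, with a mean of 0.40 to 0.51. On the same scale Msln was higher in 7 of 10 identifiers (0.74 ± 1.38, SD, exact sign-flip permutation p = 0.0957), Tinagl1 in 3 (-0.15 ± 0.88, exact p = 0.582) and Gja1 in 4 (-0.36 ± 1.80, exact p = 0.559). Taken over libraries without regard to identifiers, Clu on this scale was -1.597 ± 0.90 in GFP-positive (SD, n = 11) and -2.20 ± 0.77 in GFP-negative libraries (SD, n = 12, permutation p = 0.101). In bulk libraries, fewer cells of a type and less RNA per cell cannot be told apart, so this ratio does not say in how many cells Clu was on.

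Msln (ENSMUSG00000063011, chromosome 17, 25748613 to 25754378, minus strand, 15 exon blocks) was also higher on average in GFP-positive cells without passing the threshold. GFP-positive libraries ran from 98.9 CPM (GFP-positive 10) through a median of 180.2 to 566 CPM (GFP-positive 4, 21 counts, 95% interval 350 to 864). GFP-negative libraries ran from 0 counts (GFP-negative 5) through a median of 133 to 269.5 CPM (GFP-negative 6). The 0 in GFP-negative 5, out of 25458 counts, allows a level of up to 118 CPM. Of the GFP-positive libraries, 2 of 11 lay above the highest GFP-negative one and 8 above the GFP-negative median.

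The log2 fold change of Msln was 0.68 (SE 0.28, 95% interval 0.12 to 1.24, edgeR unadjusted p = 0.0181, adjusted p = 0.949), at place 123 of 6621 genes by p. It was close to this in library set 1 (0.73, SE 0.41, edgeR adjusted p = 0.933) and in library set 2 (0.70, SE 0.30, edgeR adjusted p = 0.593). Library set 1 averaged 308 ± 180 CPM in GFP-positive (SD, n = 5) and 149.5 ± 86.9 CPM in GFP-negative libraries (SD, n = 6). Library set 2 averaged 163 ± 52.8 CPM in GFP-positive and 107 ± 39.9 CPM in GFP-negative libraries (SD, n = 6 each). Within identifiers Msln was higher in 7 of 10, by 0.87 ± 1.53 (SD, n = 10, exact sign-flip permutation p = 0.0859). The largest difference, 4.41, was that of 8045-8050, with 21 Msln counts in GFP-positive 4 and 8 and 0 in the GFP-negative libraries. Without it the mean was 0.48 (exact sign-flip permutation p = 0.172). The differences of 61-1, 7907, 5780 and 3034 were 1.604, 1.40, 1.31 and 1.20, while 7914, 7968 and 7789-7795 had -0.35, -0.38 and -1.07.

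Mesothelium, the normal site of Msln, left few traces. The 8 fixed mesothelial markers, among them Upk3b, Wt1 and the mesothelin ligand gene Muc16, summed to 0 to 36.1 CPM in GFP-positive and 0 to 18.8 CPM in GFP-negative libraries, with medians of 6.996 CPM in GFP-positive and 3.54 CPM in GFP-negative libraries. Lrrn4, Rspo1 and Krt5 had 38, 9 and 1 counts over the GFP-positive libraries and 0 over the GFP-negative libraries, which held fewer reads. Wt1 had 48 counts over the GFP-positive and 1 over the GFP-negative libraries. Msln itself had 229 ± 142 CPM in GFP-positive (SD, n = 11) and 128 ± 68.2 CPM in GFP-negative libraries (SD, n = 12). Muc16 had 49 counts over the GFP-positive and 8 over the GFP-negative libraries, below the filter. Over the 19 libraries of at least 100000 counts, Msln ran with the epithelial sum (r = 0.49, permutation p = 0.0315, rho = 0.67, permutation p = 0.00226), but this did not pass over the 36 relations computed (adjusted p = 0.227 for r and 0.0611 for rho). Its r was 0.68 without the 2 libraries farthest from the median epithelial sum, 0.26 within GFP-positive and 0.77 within GFP-negative libraries, 0.63 in library set 1 and 0.23 in library set 2. With the mesothelial sum Msln had r = 0.23 (permutation p = 0.336, adjusted p = 0.489) and rho = 0.19 (permutation p = 0.429, adjusted p = 0.594), with r at 0.46 within GFP-positive and -0.07 within GFP-negative libraries.

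Tinagl1 (ENSMUSG00000028776, chromosome 4, 130164454 to 130175122, minus strand, 15 exon blocks) showed no difference in either direction that could be told from the spread. GFP-positive libraries ran from 11.2 CPM (GFP-positive 7, 7 counts) through a median of 26.9 to 88.6 CPM (GFP-positive 9, 76 counts). GFP-negative libraries ran from 8.61 CPM (GFP-negative 10, 1 count) through a median of 32.9 to 86.2 CPM (GFP-negative 12, 6 counts). The ranges coincided, and 8 of 12 GFP-negative libraries lay above the GFP-positive median. The fitted fold change of Tinagl1 was -0.07 on the log2 scale (SE 0.34, 95% interval -0.77 to 0.62, edgeR adjusted p = 0.997).

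The 2 library sets leaned in opposite directions for Tinagl1. In set 1 it averaged 25.6 ± 2.11 CPM in GFP-positive (SD, n = 5) and 42.1 ± 15.6 CPM in GFP-negative cells (SD, n = 6), with a fitted log2 difference of -0.71 (SE 0.42, edgeR adjusted p = 0.933). In set 2 it averaged 38.2 ± 26.8 CPM in GFP-positive and 32.6 ± 27.5 CPM in GFP-negative cells (SD, n = 6 each), with a fitted log2 difference of 0.42 (SE 0.52, edgeR adjusted p = 0.931). The interaction was 1.12 (SE 0.69, edgeR adjusted p = 0.805), so the sets were not shown to differ. The pair of identifier 7907 stood apart, with 88.6 CPM in GFP-positive 9 and 8.61 CPM in GFP-negative 10, where the 1 count of GFP-negative 10 has a 95% interval of 0.218 to 47.9 CPM. Over all 10 identifiers the mean difference was -0.03 ± 1.17 (SD, n = 10, exact sign-flip permutation p = 0.961).

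Gja1 (ENSMUSG00000050953, chromosome 10, 56377330 to 56402513, plus strand, 5 exon blocks) had a negative fitted fold change, without passing the threshold, and was the most variable of the 4 genes. GFP-positive libraries ran from 5.01 CPM (GFP-positive 5, 4 counts) through a median of 16.3 to 80.8 CPM (GFP-positive 4, 3 counts). GFP-negative libraries ran from 0 counts (GFP-negative 5 and GFP-negative 10) through a median of 30.1 to 101 CPM (GFP-negative 12, 7 counts). The zeros allow up to 118 CPM in GFP-negative 5 and up to 25.8 CPM in GFP-negative 10, and the groups overlapped fully. The SD was 96.1% of the mean in GFP-positive and 94.0% in GFP-negative libraries. For Clu it was 50.8% in GFP-positive and 62.4% in GFP-negative libraries.

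The log2 fold change of Gja1 was -0.70 (SE 0.49, 95% interval -1.71 to 0.30, edgeR unadjusted p = 0.163, adjusted p = 0.997). The group means of log2(CPM + 5) differed by only -0.05 (permutation p = 0.932), so the size of the difference depended on the scale. The fitted fold change was larger in library set 2 (-1.40, SE 0.56, edgeR adjusted p = 0.495), where Gja1 averaged 20.9 ± 16.8 CPM in GFP-positive and 53.3 ± 33.2 CPM in GFP-negative libraries (SD, n = 6 each). At an unadjusted p under 0.05, 2.35% of all genes were higher and 4.53% lower in that set. In set 1 Gja1 lay below the filter, with 36.2 ± 35.7 CPM in GFP-positive (SD, n = 5) and 16.5 ± 21.5 CPM in GFP-negative libraries (SD, n = 6). The sets were not shown to differ (interaction -1.79, SE 0.97, edgeR adjusted p = 0.756). Leaving out GFP-positive 1 moved the fold change to -1.08 (edgeR adjusted p = 0.997). Within identifiers Gja1 was higher in 5 and lower in 5, by -0.23 ± 1.79 (SD, n = 10, exact sign-flip permutation p = 0.697). The differences ran from -2.63 in 7914, with 5.30 CPM in GFP-positive and 58.8 CPM in GFP-negative cells, to 3.02 in 8045-8050, which rests on 3 counts in GFP-positive and 1 in GFP-negative cells.

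Connexin 43 is also a channel of fibroblasts, smooth muscle and endothelium, and Gja1 was set beside the markers of those cells. Libraries with high fibroblast transcripts tended to have high Gja1. Over the 19 deeper libraries the fibroblast sum gave r = 0.57 (permutation p = 0.0124) and rho = 0.60 (permutation p = 0.00749), and the smooth muscle and pericyte sum gave r = 0.60 (permutation p = 0.00753) and rho = 0.62 (permutation p = 0.00590). The endothelial sum gave r = 0.40 (permutation p = 0.0933, adjusted p = 0.287) and rho = 0.61 (permutation p = 0.00706, adjusted p = 0.0611), with r at 0.84 in library set 1 and -0.04 in library set 2. Over the 36 relations none passed (adjusted p = 0.171 for the fibroblast and smooth muscle r, and 0.0611 for their rho). Without the 2 libraries farthest from the median, r was 0.91 for fibroblasts and 0.54 for smooth muscle. Within GFP-positive libraries the fibroblast r was 0.85 (n = 10) and within GFP-negative libraries 0.46 (n = 9). It was 0.92 in library set 1 (n = 8) and 0.35 in library set 2 (n = 11). GFP-negative 10 stood outside this relation, with 7142 CPM of fibroblast markers and 0 Gja1 counts of 116211.

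**Figure D3:**
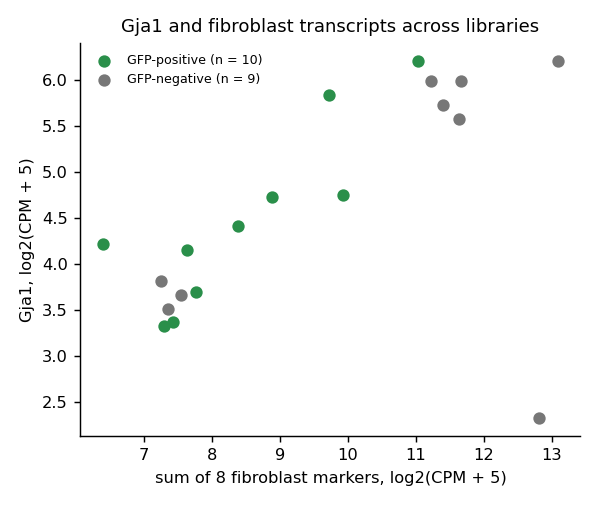
Gja1 against the sum of 8 fibroblast markers, both as log2(CPM + 5), in the 19 libraries of at least 100000 counts. Gja1 is higher where fibroblast transcripts are higher in both groups, with GFP-negative 10 alone at the lower right.

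In library set 2 the fibroblast sum had a median of 399.6 CPM in GFP-positive libraries (167 to 965) and 3202 CPM in GFP-negative libraries (1107 to 8681), without overlap. In library set 1 the medians were close, at 153 CPM in GFP-positive (0 to 2081) and 187 CPM in GFP-negative libraries (148 to 2389). The smooth muscle sum had medians of 85.5 CPM in GFP-positive and 243 CPM in GFP-negative libraries in set 2. Of the 8 fibroblast markers 6 were tested over all libraries, all 6 had a negative fold change (median -2.49, against -0.20 over the 4 tested in set 1 and -3.36 over the 6 tested in set 2), and Fbln1 was called (-3.17, edgeR adjusted p = 0.0119). The part of stromal RNA in the Gja1 difference was not tested. Clu and Msln had the opposite sign to these stromal markers, and Clu had r = -0.23 with the macrophage sum (permutation p = 0.349, adjusted p = 0.489). With the leukocyte and lymphocyte sum Clu had r = 0.55 (permutation p = 0.0142, adjusted p = 0.171) and rho = 0.40 (permutation p = 0.0910, adjusted p = 0.205), its highest r with any marker sum. By rho the epithelial sum stood higher, at 0.59, although its r was 0.39. The leukocyte and lymphocyte sum held only Ptprc, Cd52 and Trbc1, as the other 5 markers had 0 counts. Trbc1 had the highest mean of them, so the sum is not a general measure of lymphocytes. Its r with Clu was 0.50 without the 2 libraries farthest from the median, 0.52 within GFP-positive and 0.62 within GFP-negative libraries. The part of these genes in the Clu result was not tested.

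Among themselves, Clu and Msln varied together, and the other pairs did not detectably. Over the 19 libraries of at least 100000 counts, Clu and Msln had rho = 0.68 (permutation p = 0.00171, adjusted p = 0.0103 over 6 pairs) and r = 0.53 (permutation p = 0.0190, adjusted p = 0.114). Without GFP-negative 11 and GFP-positive 10, the libraries farthest from the median of Clu, r was 0.57. It was 0.66 within GFP-positive libraries (n = 10) and 0.29 within GFP-negative libraries (n = 9), 0.62 in library set 1 (n = 8) and 0.39 in library set 2 (n = 11). Both genes also tended to run with the epithelial sum, though neither rho nor r passed the adjustment. For Clu, rho was 0.59 (permutation p = 0.00848, adjusted p = 0.0611) and r was 0.39 (permutation p = 0.0956, adjusted p = 0.287). Clu also tended to run with the library total (r = 0.53, permutation p = 0.0196, adjusted p = 0.176), with r at 0.35 without the 2 most extreme totals. Its r with the library total was 0.067 within GFP-positive and 0.785 within GFP-negative libraries, 0.75 in library set 1 and 0.37 in library set 2. Msln and Tinagl1 had r = 0.43 and rho = 0.51 (permutation p = 0.0667 and 0.0271, adjusted p = 0.200 and 0.0814). The other 4 pairs had r between 0.09 and 0.24.

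**Figure D4:**
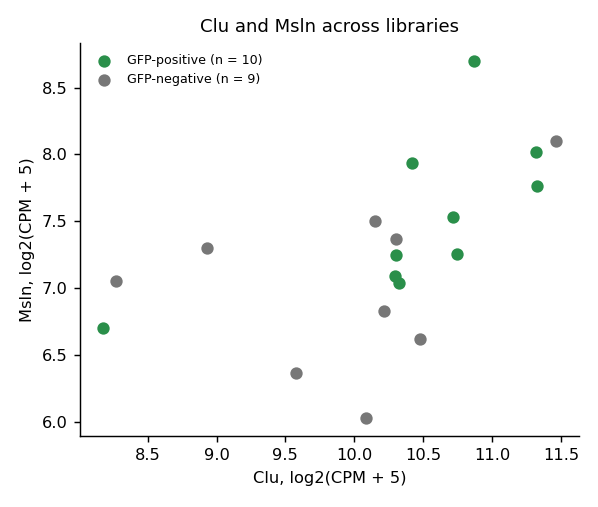
Msln against Clu, both as log2(CPM + 5), in the 19 libraries of at least 100000 counts. The points rise together in the GFP-positive libraries (r = 0.66, n = 10) and scatter more in the GFP-negative libraries (r = 0.29, n = 9).

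The genes whose levels most resembled each member were ranked by r of log2 CPM over the same 19 libraries among 4661 genes of at least moderate level. For Clu these were Ggct, a glutathione-cycle enzyme, with r = 0.84, Itga2, the collagen-binding integrin alpha 2, with 0.81, Cdc42ep5 with 0.78, the ribosomal gene Rpl8 with 0.75 and the glutathione transferase Mgst1 with 0.75. For Msln they were the WNT ligand Wnt7b with 0.77, the urotensin gene Uts2 with 0.73, Mboat1 with 0.72, Setd5 with 0.71 and Dap with 0.71. Tinagl1 was most like Bptf, a chromatin remodelling subunit, with 0.85, and 2410006H16Rik with 0.85. Gja1 was most like Cyb5r3 with 0.78, the heat shock cochaperone Dnajb1 with 0.75, Slc25a24 with 0.74, Pgrmc1 with 0.72 and the caveola protein Cav1 with 0.72. These libraries share depth and cell composition, and the values are descriptions.

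Beside the 4 genes, 30 other genes of the revival and fetal-like state gave a shift of small size toward GFP-positive cells, with no single gene called. Of 28 tested, 24 had a positive fold change, with a median of 0.32, against 58.5% of all tested genes and a median of 0.07. The list was chosen with earlier results of these data known, so this share is a description and not a test. Of the 28, 0 were called over all genes by edgeR or DESeq2, while DESeq2 called 0.635% of all genes. At an unadjusted p under 0.05 there were 5 higher and 1 lower, against 2.73% higher and 2.22% lower among all genes. The largest positive value was that of Anxa8, an annexin of stratified epithelia, with 158 ± 142 CPM in GFP-positive (SD, n = 11) and 62.5 ± 34.1 CPM in GFP-negative libraries (SD, n = 12), which was fitted as 1.07 (SE 0.34, edgeR adjusted p = 0.730). The tetraspanin gene Cd9 had 0.49 (SE 0.18, edgeR adjusted p = 0.939), and the most expressed member by CPM, S100a6, had 0.16 (SE 0.15). The tight junction gene Cldn4 had 0.71 (SE 0.30). The alarmin gene Il33, also made by fibroblasts, had 22.99 ± 15.6 CPM in GFP-positive and 59.3 ± 46.6 CPM in GFP-negative libraries, a log2 fold change of -1.02 (SE 0.40, edgeR adjusted p = 0.949). The YAP targets Ccn1 and Ccn2 had -0.56 (SE 0.36) and -0.66 (SE 0.50).

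**Figure D5:**
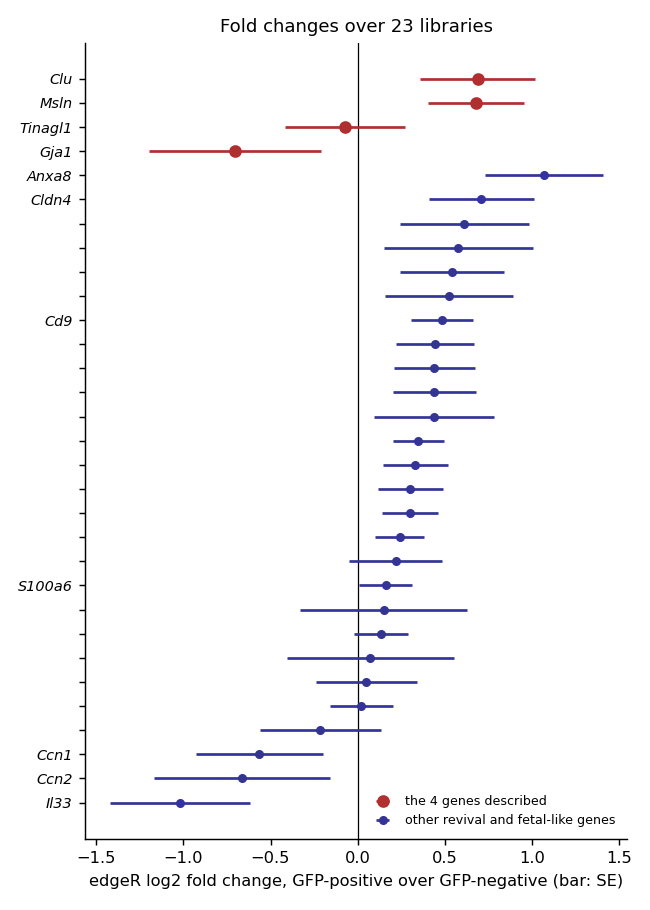
Log2 fold change, GFP-positive over GFP-negative, with SE, for the 4 genes (red) and 27 of the other revival and fetal-like genes tested (blue, the genes named in the text labelled) over all 23 libraries. Clu and Msln lie near 0.7 with Cldn4, whereas Gja1 lies at -0.70 near Ccn2.

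The positive share of this list was 22 of 28 both without GFP-positive 3 (median 0.32) and over libraries of at least 100000 counts (median 0.24), again with 0 called by edgeR, where 0.242% and 0.0134% of all genes were. It was 22 of 28 in library set 1 and 21 of 28 in library set 2, where edgeR called 0 of the list and 1.28% of all genes. With identifiers as a block and GFP-positive 3 left out, edgeR called 3 genes of the list higher, Anxa8 and Cldn4 among them, and 0 lower, where 1.46% of all genes were called. With the same block in library set 2, edgeR called Cldn4 higher (0.84, SE 0.22) and Spp1, the osteopontin gene, lower (-0.71, SE 0.19), where 2.01% of all genes were called. The epithelial markers themselves had 6 of 8 positive fold changes, with Epcam at 0.55 (SE 0.24, edgeR adjusted p = 0.992), and their part in this shift was not tested.

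Over all 23 libraries, edgeR called no gene among the partners of the 4 proteins. That fit called 1 of 6621 genes (0.0151%), so the absence of calls says little about these lists. Of 10 clusterin receptors and lipoprotein partners, 4 were tested and 0 called in that fit. The receptor gene Vldlr had 0.05 (SE 0.48), Lrp1, a scavenger receptor of fibroblasts and macrophages, had -1.34 (SE 0.75, edgeR adjusted p = 0.997), and Apoe, the apolipoprotein E gene that macrophages express strongly, had 0.49 (SE 1.01). The positive sign of Apoe rested on GFP-positive 3, the library rich in macrophage transcripts. Without it Apoe was lower in GFP-positive cells (-3.11, SE 0.60, edgeR adjusted p = 0.0391), with 0.242% of all genes called. The same held in library set 2 (-4.12, SE 0.34, edgeR adjusted p = 7.575e-08), with 1.28% called. DESeq2 run on all libraries also gave a lower value (-2.88, SE 0.55, adjusted p = 0.000309), with 0.635% called. By default DESeq2 replaces outlying counts, so its value may not hold the GFP-positive 3 count in full, which was not tested. Without GFP-positive 3 and with identifiers as a block, edgeR also called Lrp1 lower (-2.76, SE 0.58, adjusted p = 0.0113), with 1.46% of all genes called. Trem2 and Lrp2, receptors that bind clusterin, lay below the filter with 666 and 3 counts over GFP-positive and 122 and 0 over GFP-negative libraries. DESeq2 called Trem2 lower (-2.55, SE 0.64, adjusted p = 0.0178), but edgeR with a minimum count of 3 gave 0.32 (SE 0.98, adjusted p = 0.998) over all libraries. Without GFP-positive 3, over libraries of at least 100000 counts and with identifiers as a block, edgeR called Trem2 lower (-3.18, SE 0.56, adjusted p = 0.00073). In that fit 1.47% of genes were called. Of 13 chaperones and regulators, 9 were tested and 0 called, with a median of 0.03. Yap1 had 36.8 ± 19.2 CPM in GFP-positive (SD, n = 11) and 38.4 ± 35.7 CPM in GFP-negative cells (SD, n = 12), fitted as -0.27 (SE 0.35). Wwtr1, which encodes TAZ, had -0.31 (SE 0.44), Tead1 had -0.28 (SE 0.39), Bax had 0.28 (SE 0.30), and the chaperone genes Hspa8 and Hspb1 had 0.14 (SE 0.14) and 0.23 (SE 0.36).

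Of 7 mesothelin partners and relatives, 2 were tested and neither was called, where 0.0151% of all tested genes were. Furin, the protease that cuts the mesothelin precursor, had -0.21 (SE 0.29) and Bace2 had -0.13 (SE 0.40). Of 10 relatives and candidate receptors of Tinagl1, 5 were tested and 0 called over all libraries by edgeR, in the same fit. The laminin gene Lamc1 had -0.97 (SE 0.35, edgeR unadjusted p = 0.00938, adjusted p = 0.939). It was called lower in library set 2 (-1.78, SE 0.45, edgeR adjusted p = 0.0419), where 1.28% of all genes were called. In library set 1 it had 0.09 (SE 0.49, edgeR adjusted p = 0.986). In the fit over all libraries Egfr had 0.44 (SE 0.39), Itga2 had 0.34 (SE 0.39) and Itgb1 had -0.07 (SE 0.21). Tinag, the closest relative, lay below the filter with 140 counts over GFP-positive and 45 over GFP-negative libraries.

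Gja1 differed in sign from the other gap junction genes that could be tested. Of 27 connexins, pannexins and junction partners, 7 were tested, all 7 had a positive fold change between 0.05 and 0.94, and 0 were called. Among all tested genes, 58.5% had a positive fold change and 0.0151% were called. The epithelial connexin gene Gjb1 had 0.45 (SE 0.51), with 33.6 ± 21.6 CPM in GFP-positive (SD, n = 11) and 19.2 ± 22.1 CPM in GFP-negative libraries (SD, n = 12). Cav1 had 0.94 (SE 0.72), and the scaffold gene Tjp1 had 0.05 (SE 0.30). The vascular connexins Gja4 and Gja5 lay below the filter, with 40 and 12 counts over GFP-positive and 24 and 1 over GFP-negative libraries.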

How the data were processed

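Poly(A) RNA of 23 sorted mouse libraries was sequenced, with RNA taken from organoids per the labels' protocols and from digested tumours per the design text. The authors deposited expected counts per gene, already whole numbers; Salmon 1.3.0 and mm10 are named in the submitters' processing notes, and the sources used here give neither annotation nor options. The kit keeps strand, and no annotated gene overlapped the 4 members. Symbols came from the table, and coordinates and exon lengths from GENCODE M21, which held 94.7% of the identifiers.

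Titles gave each library's GFP status. Nothing says that libraries are separate animals; p-values therefore reflect only how libraries differ, which may be partly technical. Of the identifiers at the start of library names, 10 have both populations (8045 and 8050 joined, 61-1 averaged). Deviations of libraries of the same identifier correlated at -0.279 to 0.478 over 3499 genes, positive in 9 of 10 and over 0.1 in 5, short of the bar of 0.1 in every identifier. Blocks therefore stand among the alternatives, and the sign-flip tests within identifiers assume a pairing that the labels do not state. Library numbers fell into 2 runs, called library sets.

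edgeR 4.0.16 in R 4.3.3 was fitted on the whole table (TMM, filterByExpr with a minimum count of 10, robust quasi-likelihood test, Benjamini-Hochberg adjustment over 6621 genes, threshold 0.05), and tested on simulated data. CPM are counts per 1000000 of the library total; other measures used log2(CPM + 5) and two-sided permutation tests with 100000 resamples or exact sign flips. A count of 0 was read as allowing 3 counts. Alternatives used DESeq2 1.42.0, limma 3.58.1, other scalings and filters, blocks, library sets, depth and left-out libraries. Depth ran from 25458 to 4238877 counts per library.

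The members and lists were chosen with earlier results of these data known. Named from each list were its called genes, or else the 3 with the smallest p and the most expressed, and for likeness 5 genes per member whose log2 CPM averaged 5 or more; other list genes were named after their values were seen, and some list genes are counted but not reported by name here.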

Additional observations from a re-analysis of the deposited data

Results flagged for a closer look

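Of 20 sets of 5 to 10 values examined on the log2(CPM + 5) scale for a single value far from the others, 5 held one, where chance gives about 1 in 20. Clu in GFP-positive 10 was 284 CPM against 1252 to 2566 CPM in the other GFP-positive libraries of set 2, a gap of 0.673 of the log2 range (n = 6), and GFP-negative 11 of the same identifier, 7914, was also low at 304 CPM. Msln in GFP-negative 5 had 0 counts against 139 to 269.5 CPM in the other GFP-negative libraries of set 1, a gap of 0.838 of the log2 range (n = 6), in a library of 25458 counts. Gja1 in GFP-negative 10 had 0 counts against 42.9 to 101 CPM in the other GFP-negative libraries of set 2, a gap of 0.741 of the log2 range (n = 6), in a library of 116211 counts. On plain CPM these gaps were 0.424, 0.514 and 0.426 of the range, all under the limit of 0.625, and on the log2 scale the place of a 0 is set by the pseudocount of 5 CPM. The Msln difference of 8045-8050, 4.41, stood 0.513 of the range from the next of 10 identifiers. The Tinagl1 difference of 7907, 2.78, stood 0.582 of the range from the next.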

How the results depend on the processing

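Clu and Msln kept a positive and Gja1 a negative fold change in every alternative fit that gave their group difference. The ranges were wide: 0.24 to 0.85 for Clu, 0.49 to 0.92 for Msln and -1.45 to -0.25 for Gja1. Gja1 was below the filter in library set 1, so that fit gave no value for it. The mean of Gja1 in that set was higher in GFP-positive (36.2 CPM) than in GFP-negative libraries (16.5 CPM). Among the fitted fold changes of the 4 genes, the single change of call was Clu at 0.81 without GFP-positive 3 under the replicate block by identifier. Leaving out each library gave 0.59 to 0.92 for Clu, 0.55 to 0.84 for Msln, -1.08 to -0.54 for Gja1 and -0.34 to 0.0412 for Tinagl1. Tinagl1 turned positive with the replicate block by title number (0.0164), in library set 2 (0.42), in libraries of at least 100000 counts (0.0873), without GFP-positive 3 under the block (0.016), in set 2 under the block (0.18) and over libraries of at least 100000 counts without GFP-positive 3 under the block (0.24); the cause was not tested. Within identifiers, Tinagl1 averaged 0.17 over the deeper ones, and leaving out each identifier gave 0.365 to 0.78 for Clu, 0.48 to 1.09 for Msln, -0.34 to 0.11 for Tinagl1 and -0.59 to 0.0377 for Gja1. Clu relative to epithelial markers, a scale added after seeing the data, averaged 0.46 within identifiers (exact sign-flip permutation p = 0.00195). Adjusted over the 4 genes this sign-flip p was 0.00781, against 0.219 on the plain scale, a further change of call. This p was not adjusted over all genes. Over libraries without regard to identifiers, the permutation p of Clu on that scale was 0.101. The count of called genes was 61 with DESeq2, 2 with the replicate block by identifier, 0 by title number, 0 in set 1, 89 in set 2, 97 without GFP-positive 3 under the block, 140 in set 2 under the block and 111 with libraries of at least 100000 counts and without GFP-positive 3 under the block. It was 0 to 16 when single libraries were left out, the highest without GFP-positive 3. At an unadjusted p under 0.05 edgeR gave 144 higher and 100 lower genes with the block by title number, and 127 higher and 157 lower in set 1. Correlations of same-numbered titles ran from -0.186 to 0.478, positive in 4 of 11. Title numbers do not pair libraries by identifier, since GFP-negative 2 carries 7421 and GFP-positive 2 carries 61-1. Depth limits Tinagl1 and Gja1 most, with 1 or fewer counts of Gja1 in GFP-negative 2, 3, 4, 5 and 10.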
